A study of Rattus norvegicus with 9 samples.

Results

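The genes described are 39 interferon-stimulated genes, a list fixed by symbol, in primary rat nucleus pulposus cells, which fill the soft centre of the discs between vertebrae. Rows of the deposited count table whose identifier equalled a symbol were taken, which gave 38 of the 39 among 22324 genes in all. Oas2 was not analysed here. Of the 38 genes, 30 passed the filter on low counts and were tested, and 8 did not pass it: Ifit1, Oas1a, Oas3, Oasl, Mx1, Mx2, Gbp4 and Rsad2.

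Poly(A) RNA was sequenced in 9 libraries of wild-type cells, 3 in each of the groups NC, SEN and BNPMT, all grown in high-glucose medium with 10% serum. SEN cells carried the label of senescence induced by doxorubicin, a DNA-damaging drug. BNPMT cells carried the label of an intervention by BNPMT in that senescence, and neither the name, a dose nor a time is expanded in the labels. The protocol text, which gives doxorubicin at 200 nM over 24 h and 6 further days without it, stands on all samples, and NC was taken as the untreated group from its title, its lack of a treatment label and the design text. Separate cultures or animals are not stated for the replicates, so the p-values cover spread among the libraries sequenced here, possibly technical spread alone.

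Interferons are secreted proteins that bind receptor pairs on the cell surface and activate the kinases Jak1, Jak2 and Tyk2. These phosphorylate transcription factors of the STAT family, of which Stat2 works with Irf9 in a complex that binds the interferon-stimulated response element (ISRE). STAT pairs bind the gamma-activated site (GAS). The genes so raised encode antiviral effectors, sensors of foreign RNA, regulators of the pathway itself and parts of antigen presentation. Some of them also respond to DNA damage, to NF-kappaB or to Irf1 without interferon.

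The total count of a library was between 34514440 and 41873790 for NC, between 31206834 and 38391586 for SEN and between 35094282 and 41971877 for BNPMT. The floor was set at 3 counts, or 0.0715 to 0.0961 CPM (counts scaled to a library's total), and covers counting error only. Log2 changes are scaled by trimmed means of M-values (TMM) and compare groups, whereas CPM levels are per total count. TMM factors were 1.10 for NC 1, 0.797 for SEN 1 and 1.15 for BNPMT 1, and the other libraries of each group were close to these. Scaled by total counts alone, all tested genes together had a median log2 change of -0.46 in place of -0.01 for SEN against NC and of 0.52 in place of 0.02 for BNPMT against SEN. Across genes, the Spearman correlation of transcript length with how far a library lay from its group's mean, with sign, was -0.415 for SEN 1 and 0.264 and 0.234 for the other SEN libraries. It was 0.51 for BNPMT 1, -0.431 and -0.316 for the other BNPMT libraries and -0.196 to 0.15 for NC. Values without SEN 1 and BNPMT 1, each of opposite sign to the rest of its group, are given where that changed the call of a listed gene. Among markers of the tissue, Acan and Col2a1, the main proteoglycan and collagen genes of the disc core and cartilage, had mean levels of 587, 681 and 322 CPM and of 4570, 6490 and 1960 CPM in NC, SEN and BNPMT, while Tbxt, a notochordal factor, was at 0.0932, 0.0464 and 0.0429 CPM. Of the 14 markers, Pax1, Car3 and Foxf1 had their lowest means in SEN. Pax1 was at 135, 52.7 and 149 CPM, Car3 at 175, 79.7 and 129 CPM and Foxf1 at 30.6, 17.1 and 29.2 CPM. Col9a1, Hapln1, Cd24, Krt8, Krt18, Krt19 and Car12 had their highest means in SEN, with Col9a1 at 555, 1040 and 263 CPM. Sox9 was at 31.5, 31 and 22 CPM.

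The promoters of the listed genes show what they share in sequence. RefSeq promoters on the rat build GRCr8, from 250 bases before to 50 bases after the start of a gene, were found for 30 of the 38 genes. They were searched on both strands for an ISRE core, spelled GAAANNGAAA with N for any base, and for a GAS, spelled TTCNNNGAA, and matches of the 2 could overlap. The ISRE core stood in 19 of the 30 promoters (63.3%), compared with 4.12% of the 27457 promoters in all, and the GAS in 8 (26.7%), compared with 9.39%. Of the genes called higher in SEN against NC, 7 of 10 with a promoter held an ISRE core, of those called lower 4 of 9, of those that did not pass 4 of 5 and of those the filter left out 4 of 6. A match is a description of the letters and not a shown binding site. The windows below are those of genes that the results turn on, printed 5′ to 3′ on the strand of the gene with the matched motif in capitals, and Isg20 and B2m were higher in SEN with an ISRE core.
Isg20, chr1:142239942-142240001, plus strand: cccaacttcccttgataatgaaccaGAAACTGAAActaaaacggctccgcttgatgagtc
B2m, chr3:129549155-129549214, plus strand: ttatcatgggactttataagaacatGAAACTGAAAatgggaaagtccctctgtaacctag

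Parp14 and Igtp were lower in SEN, and in each promoter a GAS was followed by an ISRE core on the strand of the gene. In the promoters of Bst2, which passed in no comparison, and of Oas1a, which was not tested, a GAS also began before ISRE cores. The GAS spelling matches both strands alike, so it has no direction of its own.
Parp14, chr11:78408022-78408092, plus strand: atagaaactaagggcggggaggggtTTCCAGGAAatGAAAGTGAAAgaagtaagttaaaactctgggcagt
Igtp, chr10:42874908-42874978, plus strand: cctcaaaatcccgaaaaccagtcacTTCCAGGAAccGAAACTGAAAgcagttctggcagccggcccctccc

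Irf1, higher in SEN, and Irf9, lower in SEN, had a GAS and no ISRE core in the promoter searched.
Irf1, chr10:38417768-38417826, plus strand: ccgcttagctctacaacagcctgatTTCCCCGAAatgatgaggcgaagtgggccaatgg
Irf9, chr15:33065712-33065770, plus strand: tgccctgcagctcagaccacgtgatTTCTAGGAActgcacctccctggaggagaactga

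Levels per transcript length (FPKM) set the order of the genes. B2m, the light chain of class I molecules, was the highest of the 38 genes in each group, with 108 ± 7.35 FPKM (SD, n = 3) for NC, 140 ± 5.6 for SEN and 145 ± 11.6 for BNPMT, of which SEN and BNPMT overlap. Ifi27, which encodes a small membrane protein of mitochondria, came next at 79.4, 84.4 and 128 FPKM. Lgals3bp, a secreted glycoprotein gene, was the third in NC at 39.1 FPKM and the fourth in SEN at 19.3 FPKM. Isg20 held the third place in SEN at 63.8 FPKM, compared with 0.704 FPKM in NC and 0.939 FPKM in BNPMT. At the low end, 16 genes were under 1 CPM in every group, among them Isg15, Mx1, Oas1a and Rsad2, which are often used to read out type I interferon. As the libraries come from bulk cultures, fewer cells with a transcript and less of it per cell cannot be told apart in any result.

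**Figure D1:**
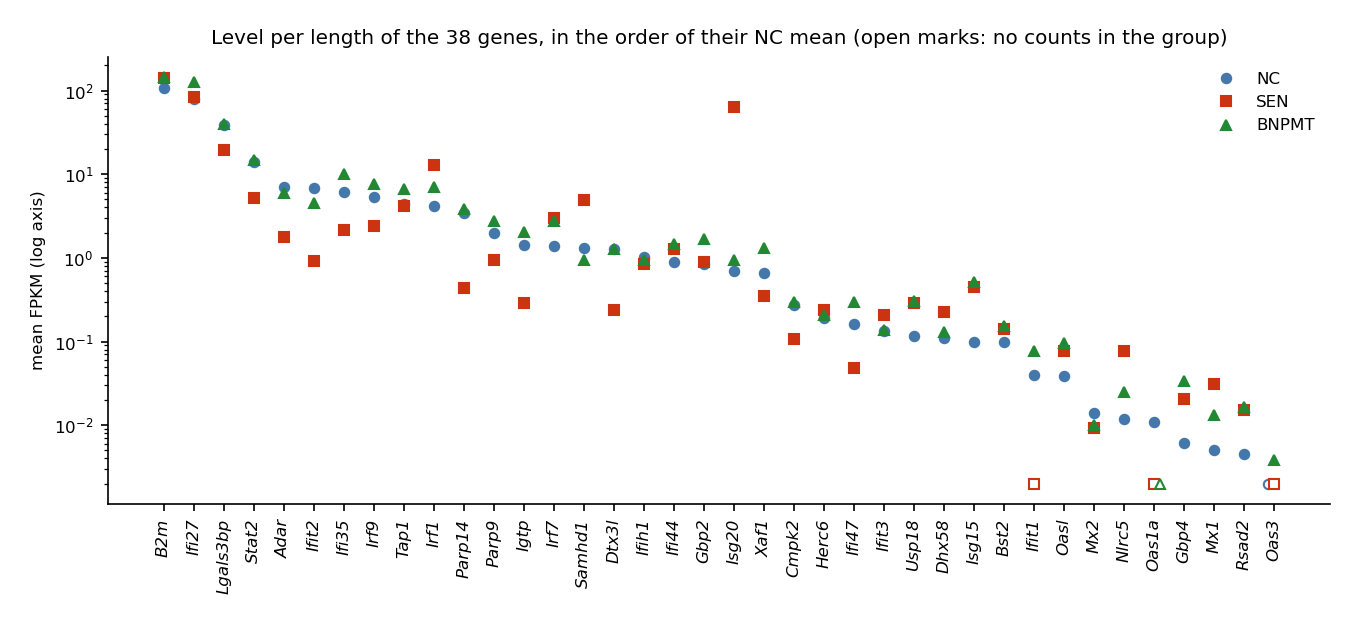
Mean level per transcript length (FPKM, log axis) of the 38 genes in NC (circles), SEN (squares) and BNPMT (triangles), ordered by the NC mean, with open marks at the bottom for groups without a count. B2m leads at 108 FPKM in NC, and Isg20 is the gene whose SEN mark lies farthest above its NC mark.

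The 8 genes that the filter left out stayed near the floor in all 3 groups, and 7 of them, all but Oasl, had under 10 counts in every library. Oas1a and Oas3, which encode enzymes that make the activator of RNase L, had summed counts of 2, 0 and 0 and of 0, 0 and 2 in NC, SEN and BNPMT. Mx1 and Mx2, dynamin-like antiviral GTPases, had sums of 2, 12 and 6 and of 5, 3 and 4. Rsad2, which encodes viperin, had sums of 2, 6 and 8, and Gbp4, a guanylate-binding GTPase gene, sums of 2, 6 and 12. Oasl, a relative of the Oas genes with ubiquitin-like domains, had counts of 2, 4 and 3 for NC, 6, 5 and 5 for SEN, and 7, 1 and 16 for BNPMT. Ifit1, whose protein binds viral RNA caps, had 1, 5 and 4 counts in NC, none in the 3 SEN libraries, and 9, 4 and 6 in BNPMT. Against a floor of 3 counts over the 3 SEN libraries together, Ifit1 was 2.99-fold lower in SEN than in NC and 5.59-fold higher in BNPMT. The counting error of the sums of 10 in NC and 19 in BNPMT is not part of these folds. With no filter on low counts all 8 entered the fit, and Ifit1 was called in the same directions (adjusted p = 0.022 and 0.00324) and Mx1 higher in SEN against NC (adjusted p = 0.0278). In that fit the other 6 passed in no comparison.

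**Figure D2:**
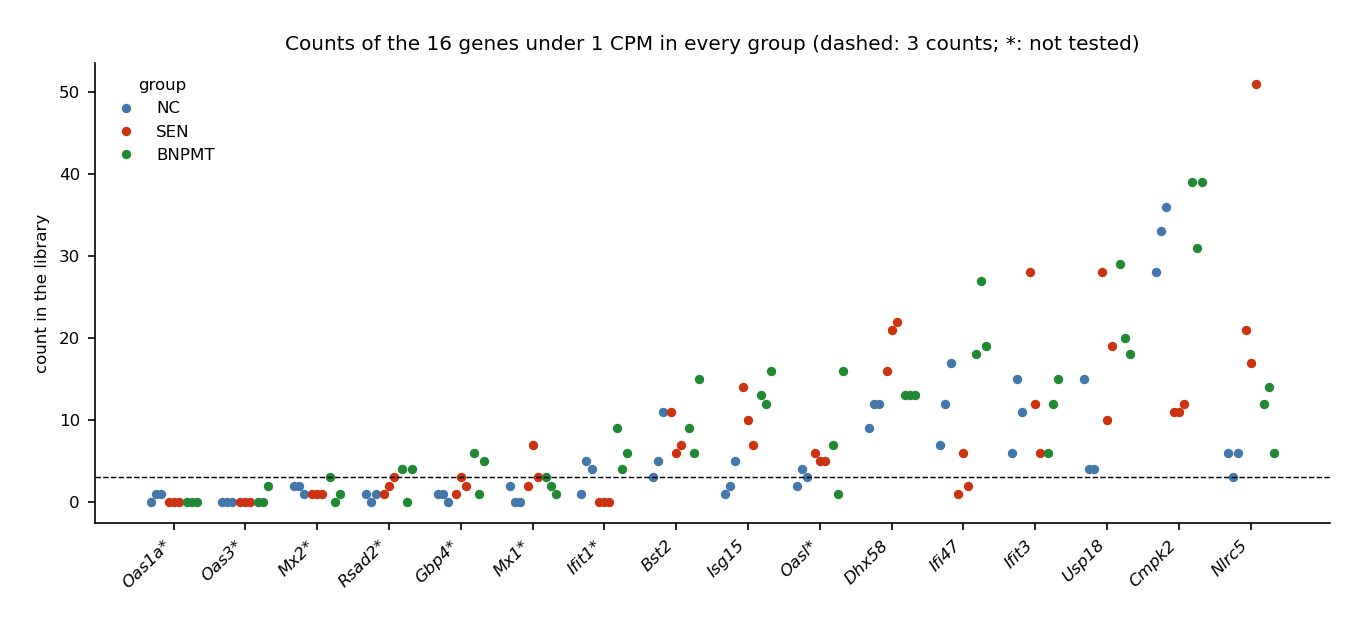
Counts per library of the 16 genes under 1 CPM in every group, for NC, SEN and BNPMT, with a dashed line at 3 counts and a star on genes that the filter left out. Oas1a and Oas3 had at most 2 counts in any library, and Nlrc5 reached 51 in SEN 3.

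SEN was set against NC to ask what went with doxorubicin-induced senescence, and the interferon-stimulated genes moved in both directions. Of the 30 tested genes 14 rose and 11 fell (edgeR quasi-likelihood test, Benjamini-Hochberg adjusted over all genes), and 5 did not pass. Among all 14956 tested genes 37.6% were called higher and 38.5% lower, so the 46.7% higher and 36.7% lower of the list lay near the background. The median log2 change was 0.47 for the list and -0.01 for all tested genes. With total counts 10 rose and 13 fell, compared with 24.5% of all tested genes higher and 56.9% lower, with medians of 0.02 for the list and -0.46 for all. Without SEN 1 and BNPMT 1, 13 of 29 rose and 10 fell, compared with 5777 higher and 5972 lower of 15023 tested genes.

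The comparison of BNPMT with SEN asks what went with the intervention. Of the 30 genes 13 rose (43.3%), 9 fell (30%) and 8 did not pass, compared with 40.7% of all tested genes higher and 39.9% lower, and the median log2 change was 0.13 for the list and 0.02 for all. With total counts 16 rose and 5 fell, compared with 57.3% of all higher and 25.8% lower, with medians of 0.63 and 0.52. Without SEN 1 and BNPMT 1, 14 of 29 rose and 9 fell, with a median of 0.30. Of all 15023 genes tested there, 6109 were higher and 6046 lower.

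BNPMT was also set against NC, which shares its libraries with the comparisons above. Here 14 of the 30 genes rose, 3 fell and 13 did not pass, while 26.3% of all tested genes were called higher and 26.5% lower. The median log2 change was 0.44 for the list and 0.00 for all tested genes. The list's shares were 46.7% and 10%. With total counts 15 rose and 2 fell, compared with 30.2% of all higher and 22.5% lower. Without SEN 1 and BNPMT 1, 13 of 29 rose and 3 fell, compared with 4445 higher and 4600 lower of 15023 tested genes. In the main test all of the list's rises but those of Isg15 and Usp18, both with few counts, were under 1 on the log2 scale.

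**Figure D3:**
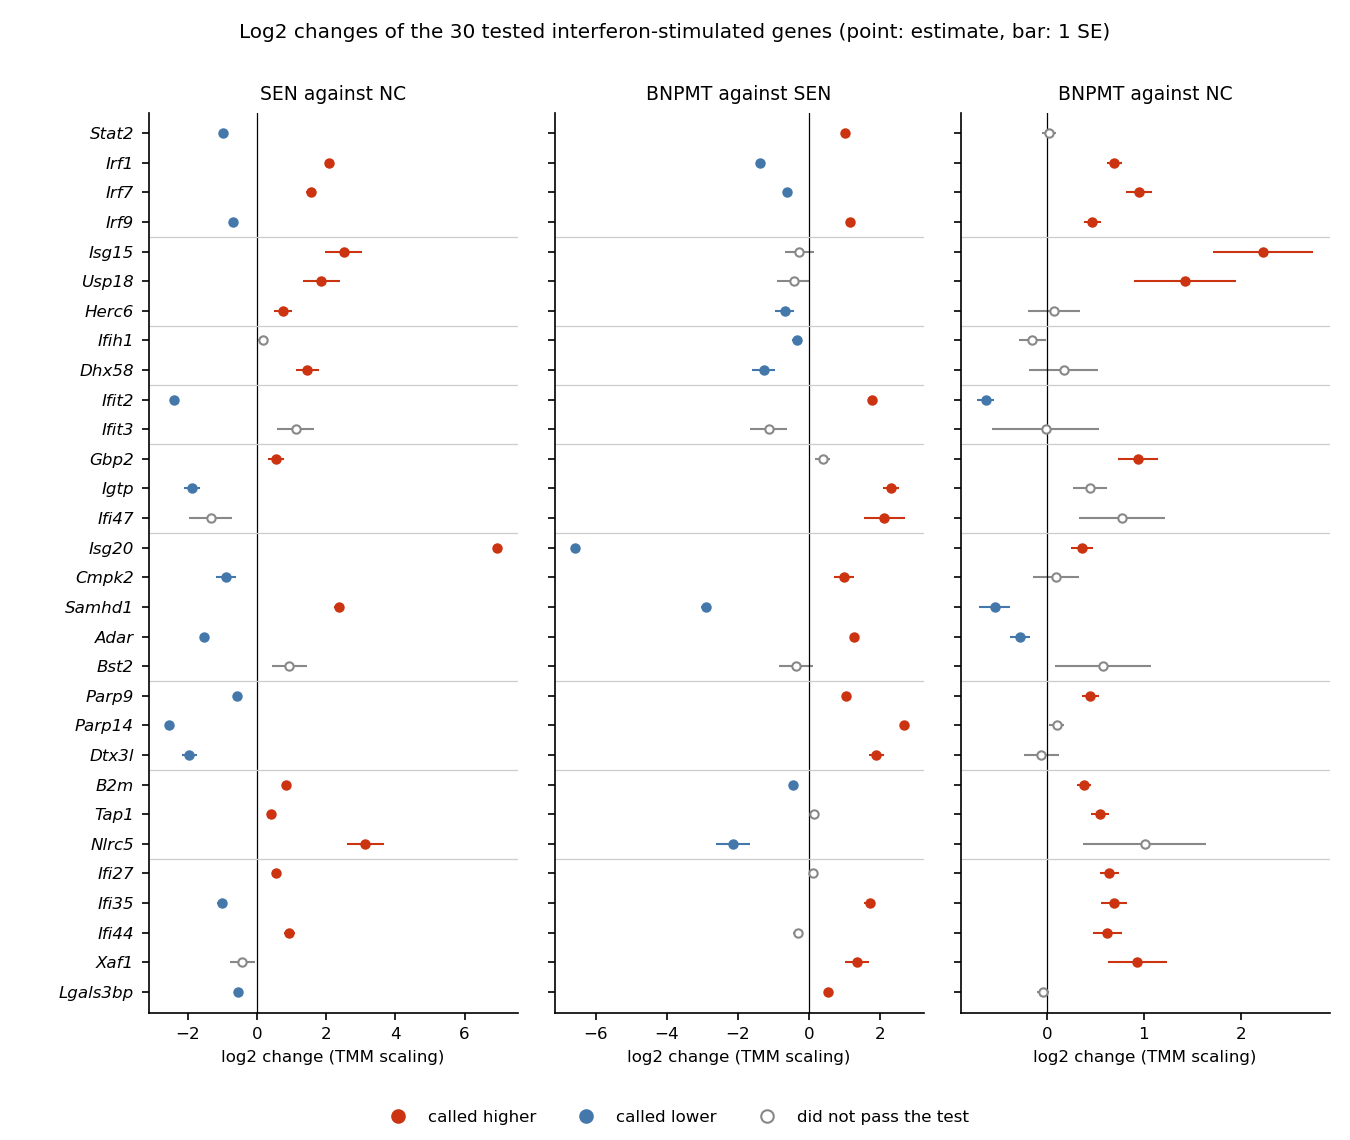
Log2 changes (points) with 1 SE (bars) of the 30 tested genes in SEN against NC, BNPMT against SEN and BNPMT against NC, grouped by role between grey lines, each panel with its own scale. Filled red points were called higher, filled blue points lower, and open grey points did not pass the test. Isg20 has the largest change of the 30 in the first 2 panels, at 6.95 and -6.59.

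The transcription factors split into pairs. Stat2 and Irf9, subunits of the ISRE-binding complex, fell in SEN, and Irf1 and Irf7, factors that themselves raise interferon and its targets, rose. Stat2 was at 47.9, 47 and 49.5 CPM across NC, 16.5, 18.2 and 18.6 across SEN, and 55, 44.8 and 51.6 across BNPMT. All SEN libraries lay below all others, and NC and BNPMT overlapped. The log2 change was -0.99 ± 0.08 (SE, adjusted p = 4.79e-08) in SEN against NC and 1.01 ± 0.08 (adjusted p = 3.26e-08) in BNPMT against SEN. Against NC the BNPMT change was 0.02 ± 0.07 and did not pass the test (adjusted p = 0.856).

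Irf9 was at 20.3, 18.4 and 17.6 CPM for NC, 8.28, 7.59 and 9.64 for SEN, and 25.5, 27.2 and 27.8 for BNPMT. The groups did not overlap, with BNPMT highest and SEN lowest. Its log2 changes were -0.68 ± 0.10 in SEN against NC, 1.15 ± 0.10 in BNPMT against SEN and 0.47 ± 0.09 in BNPMT against NC (adjusted p = 2.08e-05, 8.2e-08 and 0.000758).

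Irf1, a factor induced by interferon gamma and by NF-kappaB, was at 8.95, 9.86 and 10.6 CPM across NC, 29.5, 29 and 32 across SEN, and 16.5, 16.8 and 16.2 across BNPMT. Every SEN library was highest and every BNPMT library lay between the other groups. The log2 changes were 2.07 ± 0.08, -1.38 ± 0.08 and 0.69 ± 0.08 in the 3 comparisons (adjusted p = 3.23e-11, 1.25e-09 and 1.76e-05). Irf7, the amplifier of type I interferon production, was at 3.39, 2.59 and 2.77 CPM for NC, 5.89, 5.96 and 6.98 for SEN, and 6.15, 5.5 and 5.74 for BNPMT. SEN and BNPMT overlapped, and both lay above NC. Irf7 rose by 1.56 ± 0.14 in SEN against NC and by 0.95 ± 0.13 in BNPMT against NC (adjusted p = 1.35e-07 and 8.09e-05). Its fall in BNPMT against SEN, -0.62 ± 0.13 (adjusted p = 0.00048), was not kept with total counts, at -0.11 (adjusted p = 0.421).

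**Figure D4:**
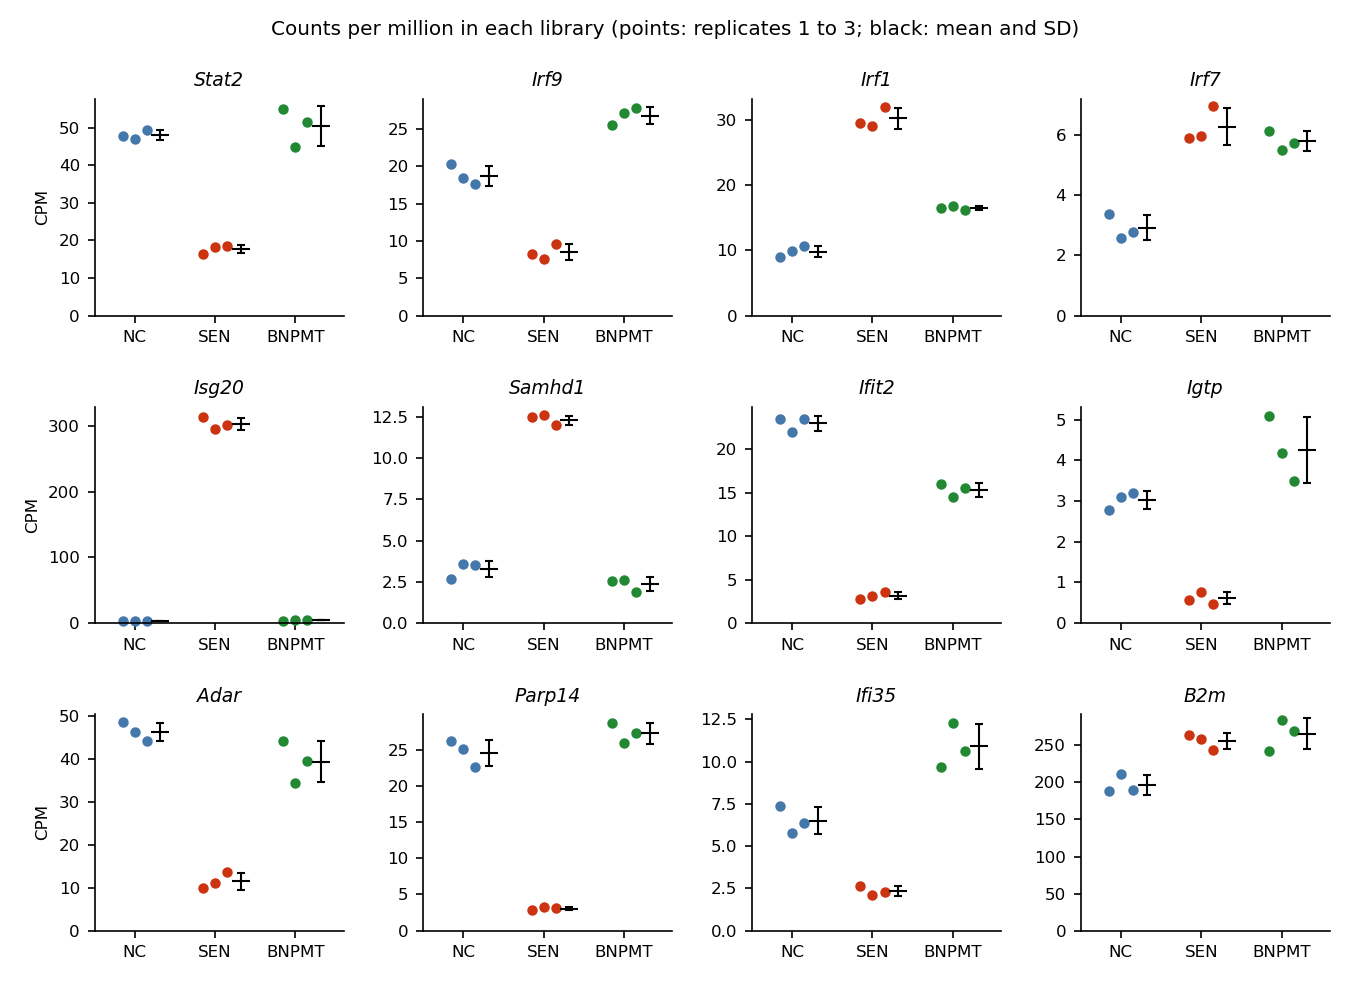
CPM per library of 12 of the genes in NC, SEN and BNPMT, with colored points for replicates 1 to 3 and the mean and SD in black, each panel with its own axis from 0. CPM are per total count, so the B2m means of 256 in SEN and 266 in BNPMT are close although the TMM-scaled change between them is -0.44. Isg20 reaches 296 to 314 CPM in SEN and stays under 5 CPM elsewhere.

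Isg20, which encodes an RNA and DNA exonuclease, had the largest change of the list. It was at 3.16, 3.01 and 3.87 CPM across NC, 314, 296 and 301 across SEN, and 3.87, 4.73 and 4.79 across BNPMT. The SEN libraries stood far above all others. The ratio of mean CPM was 90.7 for SEN against NC, and the log2 changes were 6.95 ± 0.10 in SEN against NC and -6.59 ± 0.10 in BNPMT against SEN (adjusted p = 2.51e-15 and 2.79e-15). Its call in BNPMT against NC, 0.36 ± 0.11 (adjusted p = 0.0175), was lost without NC 1, NC 2, BNPMT 2 or BNPMT 3 (adjusted p of 0.0648 to 0.0872).

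Samhd1, the phosphohydrolase that lowers the pool of DNA building blocks, was at 2.69, 3.61 and 3.51 CPM for NC, 12.5, 12.6 and 12 for SEN, and 2.56, 2.62 and 1.86 for BNPMT. It was highest in every SEN library, with log2 changes of 2.36 ± 0.14 against NC and of -2.90 ± 0.15 for BNPMT against SEN (adjusted p = 2.7e-09 and 4.2e-10). In BNPMT against NC it fell by 0.54 ± 0.16 on the log2 scale (adjusted p = 0.0112), a call lost without BNPMT 3 (adjusted p = 0.0574).

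Adar, which encodes the enzyme that edits adenosine to inosine in double-stranded RNA and thereby dampens its sensing, moved the other way. It was at 48.4, 46.1 and 44 CPM across NC, 9.82, 11.1 and 13.7 across SEN, and 44, 34.4 and 39.4 across BNPMT. SEN was below both other groups in every library. The log2 changes were -1.55 ± 0.11 and 1.27 ± 0.11 (adjusted p = 1.89e-08 and 1.36e-07). In BNPMT against NC the change of -0.28 ± 0.10 (adjusted p = 0.0322) was not kept with total counts (adjusted p = 0.0835), nor without NC 1, NC 2, BNPMT 2 or BNPMT 3 (adjusted p of 0.0701 to 0.122).

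Cmpk2, a mitochondrial nucleotide kinase gene next to Rsad2, had 28, 33 and 36 counts for NC, 11, 11 and 12 for SEN, and 39, 31 and 39 for BNPMT. It was lowest in SEN, at -0.89 ± 0.28 against NC, and BNPMT was higher than SEN by 0.99 ± 0.28 (adjusted p = 0.0104 and 0.00499). The SEN against NC call did not hold when SEN 1 and BNPMT 1 were both left out (-0.82, adjusted p = 0.0552). Bst2, which encodes tetherin, had 3 to 15 counts per library and did not pass the test in any comparison. It was called higher in SEN against NC without NC 3 (adjusted p = 0.0384).

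The mono-ADP-ribosyltransferase genes Parp9 and Parp14 and the ubiquitin ligase gene Dtx3l, whose product pairs with Parp9, all fell in SEN and were all higher in BNPMT than in SEN. Of all tested genes 38.5% were lower in SEN against NC and 40.7% higher in BNPMT against SEN (56.9% and 57.3% with total counts). Parp14 was at 26.2, 25.1 and 22.6 CPM across NC, 2.81, 3.24 and 3.11 across SEN, and 28.7, 26 and 27.3 across BNPMT. NC and BNPMT overlapped far above SEN, with log2 changes of -2.56 ± 0.10 and 2.66 ± 0.10 (adjusted p = 2.13e-11 and 1.22e-11). It did not pass in BNPMT against NC, at 0.10 ± 0.08 (adjusted p = 0.291).

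Dtx3l was at 7.56, 5.56 and 5.35 CPM for NC, 1.12, 0.929 and 1.39 for SEN, and 7.61, 5.56 and 5.12 for BNPMT. Its changes were -1.96 ± 0.22 in SEN against NC and 1.90 ± 0.22 in BNPMT against SEN (adjusted p = 1.82e-06 and 2.16e-06). Parp9 was at 15, 13.1 and 15.7 CPM across NC, 6.38, 7.43 and 7.55 across SEN, and 21, 21.1 and 19.8 across BNPMT. None of the 3 groups overlapped for Parp9, which fell by 0.59 ± 0.10 in SEN on the log2 scale and was higher in BNPMT by 1.03 ± 0.10 than in SEN and by 0.44 ± 0.09 than in NC (adjusted p = 7.8e-05, 2.25e-07 and 0.00101). Parp9 and Dtx3l overlap in RefSeq GRCr8, and whether reads were counted by strand is not given in the sources used here, which leaves shared reads possible.

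Ifit2, which encodes a tetratricopeptide protein that acts on translation, was the most expressed of its family. It was at 23.5, 22 and 23.5 CPM for NC, 2.73, 3.14 and 3.62 for SEN, and 16, 14.5 and 15.5 for BNPMT. The 3 groups did not overlap. Ifit2 had log2 changes of -2.41 ± 0.10 in SEN against NC, 1.78 ± 0.10 in BNPMT against SEN and -0.63 ± 0.09 in BNPMT against NC (adjusted p = 7.61e-11, 1.84e-09 and 5.66e-05). Ifit3 had 6, 15 and 11 counts across NC, 28, 12 and 6 across SEN, and 6, 12 and 15 across BNPMT, and passed in no comparison. Leaving out SEN 3 made it called higher in SEN against NC (adjusted p = 0.0167) and lower in BNPMT against SEN (adjusted p = 0.0145).

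Among the interferon-inducible GTPases, Igtp, a member of the immunity-related family that acts on pathogen vacuoles, was at 2.78, 3.09 and 3.2 CPM for NC, 0.573, 0.769 and 0.481 for SEN, and 5.09, 4.19 and 3.48 for BNPMT. SEN lay below NC and NC below BNPMT in every library. The log2 changes were -1.87 ± 0.23 and 2.31 ± 0.22 (adjusted p = 4.4e-06 and 3.43e-07). Against NC the BNPMT change of 0.44 ± 0.18 just missed the threshold (adjusted p = 0.0507) and passed it with total counts (0.49, adjusted p = 0.0332) and without SEN 2, SEN 3 or BNPMT 3 (adjusted p of 0.0264 to 0.0494).

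Ifi47, of the same family, had 7, 12 and 17 counts across NC, 1, 6 and 2 across SEN, and 18, 27 and 19 across BNPMT. It was called higher in BNPMT against SEN at 2.12 ± 0.58 (adjusted p = 0.00412). In SEN against NC the change was -1.34 ± 0.63 (adjusted p = 0.0671), called lower with total counts at -1.78 (adjusted p = 0.0165) and without SEN 2 (adjusted p = 0.0123). Gbp2, a guanylate-binding GTPase gene, was at 2.32, 2 and 1.77 CPM for NC, 2.42, 1.38 and 2.63 for SEN, and 3.75, 4.25 and 4.05 for BNPMT. BNPMT lay above both others, and Gbp2 rose in BNPMT against NC by 0.94 ± 0.21 (adjusted p = 0.00206). Its call in SEN against NC, 0.55 ± 0.22 (adjusted p = 0.0377), was lost with total counts (0.10, adjusted p = 0.697), without SEN 1 and BNPMT 1 (0.44, adjusted p = 0.118) and without NC 2, NC 3, SEN 1, SEN 3 or BNPMT 3 (adjusted p of 0.0511 to 0.179). From SEN to BNPMT, at 0.39 ± 0.21, Gbp2 did not pass, but did with total counts (0.89, adjusted p = 0.0013) and without SEN 3 (adjusted p = 0.0458).

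The genes of the ISG15 system, a ubiquitin-like modifier and the enzymes that attach or remove it, were expressed at low levels. Isg15, the modifier itself and a gene usually strongly raised by type I interferon, had 1, 2 and 5 counts across NC, 14, 10 and 7 across SEN, and 13, 12 and 16 across BNPMT. Both SEN and BNPMT lay above NC, with log2 changes of 2.51 ± 0.53 and 2.23 ± 0.52 (adjusted p = 0.000716 and 0.0027), at means of 0.294 ± 0.0864 and 0.345 ± 0.0352 CPM. BNPMT and SEN overlapped, and the change of -0.28 ± 0.41 between them did not pass (adjusted p = 0.541) and turned to 0.22 with total counts.

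Usp18, the protease that removes Isg15 and blocks the type I receptor, had 15, 4 and 4 counts for NC, 28, 10 and 19 for SEN, and 29, 20 and 18 for BNPMT. The groups overlapped, NC 1 being the high library of its group. It was called higher in SEN against NC at 1.86 ± 0.54 (adjusted p = 0.00612). The call in BNPMT against NC, 1.43 ± 0.53 (adjusted p = 0.0356), was lost without SEN 1 and BNPMT 1 together (1.25, adjusted p = 0.0732) and without NC 2, NC 3, BNPMT 1 or BNPMT 2 (adjusted p of 0.0729 to 0.147). From SEN to BNPMT Usp18 was at -0.43 ± 0.46 (adjusted p = 0.397), and at 0.07 with total counts.

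Herc6, the ligase that attaches Isg15 in rodents, was at 1.25, 1.48 and 1.79 CPM across NC, 1.59, 2.21 and 1.81 across SEN, and 2.39, 1.14 and 1.38 across BNPMT. All 3 groups overlapped. Its calls in SEN against NC (0.75 ± 0.27, adjusted p = 0.0219) and BNPMT against SEN (-0.68 ± 0.27, adjusted p = 0.0316) were both lost with total counts, at 0.30 and -0.17 (adjusted p = 0.329 and 0.562). Leaving out NC 1, NC 2 or SEN 2 also ended the first (adjusted p of 0.0557 to 0.0875), and leaving out SEN 2, SEN 3, BNPMT 2 or BNPMT 3 the second (adjusted p of 0.0564 to 0.118).

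Of the RNA sensors, Dhx58, the regulator known as LGP2, had 9, 12 and 12 counts in NC, 16, 21 and 22 in SEN, and 13 in each BNPMT library. It was higher in SEN than in both others in every library, at 1.45 ± 0.33 against NC and -1.28 ± 0.33 for BNPMT against SEN (adjusted p = 0.00136 and 0.0026). Ifih1, the MDA5 sensor of long double-stranded RNA, was at 5.33, 4.79 and 5.49 CPM for NC, 3.99, 4.97 and 3.99 for SEN, and 5.52, 4.79 and 4.24 for BNPMT, with overlap between all groups. It did not pass in SEN against NC, at 0.18 ± 0.14 (adjusted p = 0.263), and was at -0.28 with total counts. Its call in BNPMT against SEN, -0.33 ± 0.14 (adjusted p = 0.044), turned to 0.17 with total counts (adjusted p = 0.269) and was lost without NC 1, NC 2, NC 3, SEN 2, BNPMT 2 or BNPMT 3 (adjusted p of 0.0573 to 0.194).

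The 3 class I antigen presentation genes of the list were called higher in SEN, Tap1 not with total counts. Of all tested genes 37.6% were called higher in SEN against NC, and 24.5% with total counts. B2m was at 188, 212 and 190 CPM across NC, 264, 259 and 244 across SEN, and 243, 285 and 270 across BNPMT. SEN and BNPMT overlapped above NC. B2m rose by 0.83 ± 0.07 in SEN against NC and by 0.39 ± 0.07 in BNPMT against NC (adjusted p = 1.56e-07 and 0.000623), and by 0.38 and 0.43 with total counts. In BNPMT against SEN it was called lower at -0.44 ± 0.07 (adjusted p = 6.38e-05), but with total counts it was at 0.06 (adjusted p = 0.441).

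Tap1, a subunit of the peptide transporter, was at 10.5, 12.8 and 11.7 CPM for NC, 10.6, 10.7 and 12.3 for SEN, and 17.1, 18.5 and 17.3 for BNPMT. BNPMT lay above both other groups, which overlapped. Tap1 rose by 0.54 ± 0.09 in BNPMT against NC (adjusted p = 0.000365). Its change in SEN against NC, 0.39 ± 0.10 (adjusted p = 0.00232), was -0.06 with total counts (adjusted p = 0.583). From SEN to BNPMT it did not pass under TMM (0.15 ± 0.10, adjusted p = 0.159), and with total counts it rose by 0.65 (adjusted p = 2.08e-05). Nlrc5, the activator of class I gene transcription, had 6, 3 and 6 counts across NC, 21, 17 and 51 across SEN, and 12, 14 and 6 across BNPMT. It was higher in every SEN library than elsewhere, at 3.13 ± 0.54 against NC and -2.13 ± 0.48 for BNPMT against SEN (adjusted p = 0.000121 and 0.00101), with SEN 3 the high library of its group.

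Among the other genes, Ifi35, a cytoplasmic partner of Nmi, was at 7.39, 5.78 and 6.38 CPM for NC, 2.66, 2.08 and 2.26 for SEN, and 9.66, 12.3 and 10.6 for BNPMT. No group overlapped another. Ifi35 changed by -1.02 ± 0.15 in SEN against NC, 1.71 ± 0.15 in BNPMT against SEN and 0.69 ± 0.13 in BNPMT against NC (adjusted p = 3.62e-05, 1.34e-07 and 0.00074).

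Lgals3bp was at 84.3, 85.7 and 82.3 CPM across NC, 43.1, 39.3 and 42.1 across SEN, and 83.3, 89.9 and 80.3 across BNPMT. It was lower in SEN than in both others in every library, at -0.57 ± 0.06 and 0.52 ± 0.06 (adjusted p = 2.07e-06 and 3.99e-06), and with total counts the changes were -1.02 and 1.03. Ifi27 was at 67, 69.3 and 69.4 CPM for NC, 82, 68.4 and 68.6 for SEN, and 96.1, 122 and 114 for BNPMT. BNPMT lay above NC in every library, a rise of 0.64 ± 0.09 (adjusted p = 9.81e-05), and NC and SEN overlapped. The SEN against NC call of Ifi27, 0.54 ± 0.09 (adjusted p = 0.000134), was lost with total counts (0.09, adjusted p = 0.366) and after removal of the length trend (0.06, adjusted p = 0.285). In BNPMT against SEN, 0.10 ± 0.09 under TMM, it rose with total counts (0.60, adjusted p = 2.52e-05), without BNPMT 1 (adjusted p = 0.0183) and without SEN 1 and BNPMT 1 (0.30, adjusted p = 3.48e-05).

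Ifi44 was at 2.32, 2.99 and 2.7 CPM across NC, 3.41, 4.23 and 3.62 across SEN, and 4.11, 4.53 and 4.17 across BNPMT. Both SEN and BNPMT lay above NC, with rises of 0.94 ± 0.15 and 0.62 ± 0.15 (adjusted p = 6.54e-05 and 0.00314). Between them the change of -0.31 ± 0.14 did not pass (adjusted p = 0.0602) and was at 0.19 with total counts. Xaf1, which encodes an antagonist of the apoptosis inhibitor XIAP, was at 1.48, 0.593 and 1.81 CPM for NC, 0.807, 0.545 and 0.735 for SEN, and 2.44, 2.45 and 2.79 for BNPMT. BNPMT lay above both others, with rises of 1.36 ± 0.33 against SEN and 0.93 ± 0.30 against NC (adjusted p = 0.00189 and 0.019). The rise against NC was lost without NC 2 or BNPMT 3 (adjusted p of 0.0533 to 0.0617). In SEN against NC Xaf1 was at -0.43 ± 0.35 (adjusted p = 0.286), and was called lower with total counts (-0.88, adjusted p = 0.0338) and without NC 2 (adjusted p = 0.0137).

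The ligands and receptors upstream of these genes were taken from lists of pathway genes. Of 11 interferon genes 3 had a row and 1 was tested: Ifne, an epithelial type I interferon, had 4, 2 and 6 counts across NC, 27, 23 and 21 across SEN, and 6, 2 and 5 across BNPMT. It was higher in SEN than elsewhere, at 3.13 ± 0.42 against NC and -3.10 ± 0.42 for BNPMT against SEN (adjusted p = 1.27e-05 and 1.07e-05), at a mean of 0.678 CPM. Ifng and Ifnl1 had 1 count each, in SEN 1. Ifnb1, the Ifna genes of the list, Ifnk and Ifnl3 were not analysed here.

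All 6 receptor genes fell in SEN, and 5 of the 6 were higher in BNPMT than in SEN, with medians of -0.52 and 0.53. Of all tested genes 38.5% were lower in the first and 40.7% higher in the second comparison. Ifnar1, of the type I receptor, was at 73.9, 70.5 and 72.9 CPM for NC, 31.2, 32.1 and 33.4 for SEN, and 84.5, 83.4 and 81.8 for BNPMT, and Ifnar2, its partner, at means of 23.8, 11.5 and 22.1 CPM. Ifnar1 changed by -0.72 ± 0.05 and 0.87 ± 0.05, and Ifnar2 by -0.60 ± 0.08 and 0.44 ± 0.08, in SEN against NC and BNPMT against SEN. The type II receptor genes Ifngr1 and Ifngr2 changed by -0.44 and -0.24 in SEN against NC and by 0.63 and 0.32 in BNPMT against SEN. Il10rb, shared by the type III and interleukin 10 receptors, fell from 19.2 ± 1.35 CPM in NC to 7.05 ± 0.794 in SEN and was at 27 ± 1.48 in BNPMT. Ifnlr1, of the type III receptor, was called lower in SEN against NC at -0.42 ± 0.15 (adjusted p = 0.0207), which was lost without NC 2, SEN 1 or SEN 2 (adjusted p of 0.055 to 0.0752). It did not pass in BNPMT against SEN (0.30 ± 0.15, adjusted p = 0.0777), where it was called higher with total counts (0.81, adjusted p = 0.000249) and without SEN 3 or BNPMT 2 (adjusted p of 0.0109 to 0.0135). In BNPMT against NC 3 of 6 rose, of which Ifnar1 (0.15) and Ifngr1 (0.19) were each lost without NC 1, NC 2, NC 3, BNPMT 2 or BNPMT 3, beside 26.3% of all tested genes higher. Ifnar2 did not pass there (-0.16 ± 0.08) and was called lower without SEN 1 and BNPMT 1 (-0.18, adjusted p = 0.0293).

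**Figure D5:**
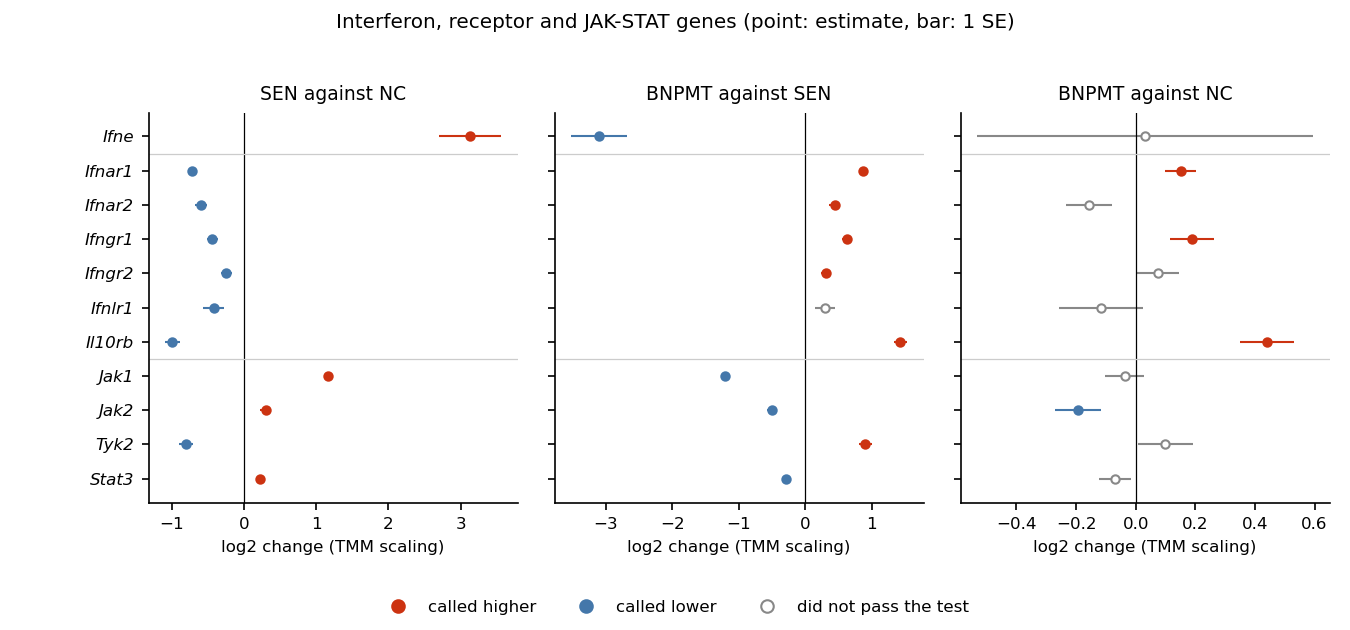
Log2 changes (points) with 1 SE (bars) of the tested interferon, receptor and JAK-STAT genes in the 3 comparisons, each panel with its own scale, with filled red points called higher, filled blue points lower and open grey points not passing. The 6 receptor genes lie left of 0 in SEN against NC, from -0.99 for Il10rb to -0.24 for Ifngr2.

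Of 4 tested JAK-STAT genes 3 rose and 1 fell in SEN against NC, beside 37.6% of all tested genes higher and 38.5% lower. Under total counts 1 rose and 2 fell, beside 24.5% and 56.9%. Jak1, the kinase shared by all 3 interferon types, rose from 239 ± 2.5 to 393 ± 23.1 CPM and was at 242 ± 24.1 in BNPMT, with log2 changes of 1.17 ± 0.07 and -1.20 ± 0.07. Tyk2, the partner kinase of the type I receptor, changed by -0.81 ± 0.10 and 0.91 ± 0.10. Jak2 was at 0.30 ± 0.08 in SEN against NC (adjusted p = 0.00255) and at -0.15 with total counts (adjusted p = 0.111), and Stat3, which also serves interleukin 6 signalling, was called higher at 0.22 ± 0.05 and lower at -0.23 with total counts.

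The negative regulators held 6 of 13 higher and 5 lower in SEN against NC, 5 higher and 7 lower in BNPMT against SEN, and 6 higher and 3 lower in BNPMT against NC. Of all tested genes 37.6% and 38.5%, 40.7% and 39.9%, and 26.3% and 26.5% were called so, and the list's 46.2% and 38.5% in SEN against NC lay near that background. Under total counts the list had 4 higher and 8 lower, and 8 and 4, in the first 2 comparisons, beside 24.5% and 56.9%, and 57.3% and 25.8%, of all tested genes. Socs1 and Socs3, which block JAK kinases and receptors, rose from 4.55 ± 0.658 to 12 ± 0.742 CPM and from 21.9 ± 0.757 to 143 ± 5.41 CPM in SEN. In BNPMT Socs1 was at 2.8 ± 0.165 CPM and Socs3 at 31.5 ± 2.27 CPM, and against NC they changed by -0.75 ± 0.13 and 0.48 ± 0.07. Ptpn6, the phosphatase SHP-1 of blood cells, changed by 3.65 ± 0.24 in SEN against NC and -2.83 ± 0.22 in BNPMT against SEN, and Pias2 by 0.79 ± 0.06 and -0.90 ± 0.06.

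Of 14 tested genes of sensing and interferon induction 3 rose and 9 fell in SEN against NC, and 10 rose and 3 fell in BNPMT against SEN, beside 37.6% and 38.5%, and 40.7% and 39.9%, of all tested genes. Under total counts the list had 2 higher and 11 lower, and 12 and 2, beside 24.5% and 56.9%, and 57.3% and 25.8%, of all. Tbk1, the kinase that activates Irf3, rose from 27.2 ± 0.359 to 74 ± 0.832 CPM and was at 36.8 ± 0.608 in BNPMT. The adaptor genes Mavs and Ticam1 changed by -0.86 ± 0.09 and -0.56 ± 0.08 in SEN against NC and by 0.83 ± 0.09 and 0.77 ± 0.08 in BNPMT against SEN. Irf8, a factor of myeloid cells, was at 0.35 ± 0.107 CPM in NC, 2.42 ± 0.618 in SEN and 0.51 ± 0.214 in BNPMT. Counts in BNPMT against NC were 4 higher and 3 lower, beside 26.3% and 26.5% of all tested genes.

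Beyond the 3 genes above, 12 of 18 other class I presentation genes were called higher in SEN against NC and none lower, beside 37.6% and 38.5% of all tested genes. Under total counts 5 were higher and 4 lower, beside 24.5% and 56.9% of all. The median log2 change was 0.57. From SEN to BNPMT 5 rose and 9 fell, beside 40.7% and 39.9% of all. Under total counts 9 rose and 4 fell there, beside 57.3% and 25.8% of all. In BNPMT against NC 10 rose and none fell, beside 26.3% and 26.5% of all. RT1-A2, a class I heavy chain whose reads may be shared with near-identical RT1 genes, rose from 10.7 ± 0.167 to 23.2 ± 0.341 CPM in SEN and was at 18.1 ± 0.934 in BNPMT. The peptide-loading chaperone genes Canx, Pdia3 and Calr, which also serve protein folding in general, were all called higher in SEN, and changed by -1.09 ± 0.07, -0.60 ± 0.06 and -0.61 ± 0.05 in BNPMT against SEN. With total counts Calr did not pass in SEN against NC (0.10, adjusted p = 0.0515), nor Pdia3 in BNPMT against SEN (-0.10, adjusted p = 0.0916).

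Among 46 tested other interferon-responsive genes 15 rose and 22 fell in SEN against NC, 24 rose and 11 fell in BNPMT against SEN, and 21 rose and 6 fell in BNPMT against NC. The list's 32.6% higher and 47.8% lower in SEN against NC stood beside 37.6% and 38.5% of all tested genes, its 52.2% and 23.9% in BNPMT against SEN beside 40.7% and 39.9%, and its 45.7% and 13% in BNPMT against NC beside 26.3% and 26.5%. With total counts 8 rose and 29 fell in SEN against NC, beside 24.5% and 56.9% of all. The chemokine gene Cxcl10 was at 0.145, 0.42 and 0.191 CPM for NC, 75.4, 78.7 and 71 for SEN, and 0.478, 0.94 and 0.548 for BNPMT. It changed by 8.63 ± 0.19, -7.37 ± 0.17 and 1.26 ± 0.36 in the 3 comparisons (adjusted p = 9.95e-14, 1.26e-13 and 0.0101). Ccl2, the monocyte chemokine, changed by 4.07 ± 0.16 and -2.85 ± 0.15. Slfn13 and the complement protease gene C1s changed by 1.41 ± 0.06 and 1.44 ± 0.06 in SEN against NC and by -1.10 ± 0.06 and -0.98 ± 0.06 in BNPMT against SEN. These 4 genes, named for their small adjusted p, all rose in SEN against NC, where more of the 46 fell (22) than rose (15).

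Summed levels of markers of other cell types set the SEN libraries apart, and their part in the results above was not tested. The summed level of the 11 macrophage and monocyte markers with a row was 11.8 to 13.2 CPM for NC, 36.3 to 40.1 for SEN and 16.9 to 19.2 for BNPMT. Of these Cd68 was at means of 0.464, 22.6 and 0.527 CPM, Itgam at 0, 3.97 and 0, and Mrc1 at 0, 5.15 and 0.0095. Lyz2 was at means of 0.236, 1.55 and 0.0652 CPM and Csf1r at 0.0605, 0.403 and 0.0319 CPM. Cd14 and Fcer1g went the other way, at 11.4, 4.04 and 16.6 CPM and at 0.443, 0.0496 and 0.708 CPM. Adgre1 and Tyrobp, both macrophage genes, had summed counts of 1 and 2 in NC and 0 in SEN and in BNPMT. C1qa and C1qc each had a summed count of 3 in SEN and 0 in NC and BNPMT. The 5 T, B and NK cell markers summed to 0.119 to 0.272 CPM for NC, 1.58 to 1.89 for SEN and 0.0957 to 0.712 for BNPMT. Most of the SEN sum was Cd79a, at means of 0.00796, 1.27 and 0.0159 CPM, and Cd4 was at 0, 0.401 and 0.00794. Cd8a and Gzmb had their lowest means in SEN, at 0.157, 0.0568 and 0.387 CPM and at 0.0423, 0.0174 and 0.0413 CPM. Cd3d had summed counts of 0, 3 and 0. The 6 markers of plasmacytoid and other dendritic cells, the main interferon producers of blood, summed to 91.9 to 98.1, 66.1 to 68.9 and 104 to 124 CPM. Most of that sum was Tcf4, which many cell types express, at means of 93.4, 48.6 and 109 CPM, while Flt3 and Itgax had means of 1.8 and 16.5 CPM in SEN and of 0.0259 and 1.27 in NC. RT1-Ba had summed counts of 0, 0 and 1 and RT1-Da of 0, 2 and 0 in NC, SEN and BNPMT, and Flt3 was at 0 in BNPMT. The 7 endothelial markers summed to 1.04 to 1.55, 4.95 to 5.54 and 0.981 to 1.54 CPM. Most of the SEN sum was Pecam1, at means of 0.0165, 4.04 and 0.0254 CPM, and Kdr was at 0.107, 0.335 and 0.462. Tek was lower in SEN than in NC, at 0.962, 0.441 and 0.586 CPM, and Vwf was at 0.27, 0.265 and 0.17. Cdh5, Emcn and Tie1 had summed counts of 0, 2 and 0, of 0, 4 and 0 and of 0, 1 and 1 in NC, SEN and BNPMT.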

How the data were processed

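Poly(A) RNA of 9 libraries was measured, and the authors deposited whole-number counts and FPKM for each gene. HTSeq, HISAT2 and fastp are named in the submitters' processing notes, as is mRatBN7.2, a rat build. FPKM as deposited were counts divided by length and total count (largest relative difference 6.59e-16). Neither the annotation nor strand use in counting is given in the sources used here, and overlapping genes or close paralogs (Ifit, Oas, Gbp, RT1) may share reads.

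Counts of all 22324 genes were filtered with filterByExpr and tested with the quasi-likelihood F test of edgeR 4.0.16 (R 4.3.3), with TMM factors and a 3-group layout, Benjamini-Hochberg adjusted over 14956 genes at 0.05. The model was tested on simulated data. Levels are CPM of the total count, with SD over 3 libraries. A gene was near the floor when the filter left it out or each library held under 10 counts.

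The members and lists were chosen with earlier results of these data known. Values per library are given for each member called against NC with 1 CPM or more in a group, and of each pathway list the counts and up to 4 genes with the smallest adjusted p. Alternatives were DESeq2 size factors, the DESeq2 1.42.0 Wald test, total counts, no filter, 1 CPM in 3 libraries, only the compared groups, a replicate block, limma 3.58.1 on log2(FPKM + 1) and log2(FPKM + 0.1) of the authors' values, removal of the length trend by loess, and leaving out each library or SEN 1 and BNPMT 1. A gene of the JAK-STAT list is not reported here. Markers without a row, Ptprc among them, were not analysed here. The replicate numbers of the titles were not taken as pairs, and libraries of a group differed beyond sampling noise (chi-square over its degrees of freedom at least 3.41).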

Additional observations from a re-analysis of the deposited data

How the results depend on the processing

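In the alternatives that gave a value, 18 to 20 for each, 48 of 64 called gene results kept direction and call: 19 of 25 in SEN against NC, 17 of 22 in BNPMT against SEN and 12 of 17 in BNPMT against NC. The median log2 change of the list in SEN against NC (0.47) was 0.015 with total counts, -0.086 with a filter of 1 CPM in 3 libraries, which leaves out the low genes, -0.0090 and -0.010 with limma on FPKM with pseudocounts of 1 and 0.1, and 0.15 after removal of the length trend. All tested genes had medians of -0.46, -0.024, -0.25, -0.41 and -0.25 in these settings. In BNPMT against SEN the median of the list (0.13) was 0.63, 0.42, 0.27 and 0.62 under the former 4, and 0.30 without SEN 1 and BNPMT 1. For all tested genes it was 0.52, 0.047, 0.27, 0.46 and 0.018. In BNPMT against NC the median of the list (0.44) was 0.49 with total counts, 0.50 with no filter, 0.17 with limma at a pseudocount of 1 and 0.34 after removal of the length trend. For all tested genes it was 0.055, 0, 0.018 and 0.014. Genes of the list called higher in SEN against NC were 9 with limma at a pseudocount of 1. Of all 14956 tested genes 3555 were called so there, compared with 5628 in the main test. Genes of the list called lower in BNPMT against SEN were 5 with total counts, and 4 and 5 with limma at pseudocounts of 1 and 0.1. Of all tested genes 3857, 3695 and 3800 were called so in these settings, compared with 5969 in the main test.

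Leaving out single libraries gave 12 to 14 higher and 11 to 12 lower with medians of 0.35 to 0.50 in SEN against NC, 13 to 14 higher and 7 to 9 lower with 0.08 to 0.20 in BNPMT against SEN, and 11 to 15 higher and 1 to 3 lower with 0.37 to 0.47 in BNPMT against NC, where 1 was called lower without BNPMT 3. Of the 15122 to 15398 genes tested in these runs, 5493 to 5915 were higher and 5575 to 6013 lower in SEN against NC. In BNPMT against SEN 5922 to 6138 were higher and 5834 to 6161 lower. In BNPMT against NC 3232 to 4231 were higher and 3305 to 4294 lower. With the replicate block 13 were higher and 11 lower, 13 and 7, and 14 and 2 in the same order. Of all 14956 tested genes 5517 were higher and 5626 lower, 5973 and 5869, and 3643 and 3705. The replicate numbers were not taken as pairs, with correlations of same-numbered libraries of -0.24 to 0.0581.

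Signs turned in BNPMT against SEN with total counts and with limma at pseudocounts of 1 and 0.1 for B2m (0.058, 0.055 and 0.055), Bst2 (0.14, 0.017 and 0.064), Ifi44 (0.19, 0.11 and 0.18), Ifih1 (0.17, 0.080 and 0.15), Usp18 (0.071, 0.023 and 0.096) and Isg15 (0.22, 0.077 and 0.22, and 0.013 without SEN 1 and BNPMT 1). In SEN against NC they did so under the same 3 for Ifih1 (-0.28, -0.13 and -0.25) and Tap1 (-0.059, -0.046 and -0.055). In BNPMT against NC, where none of the genes that follow was called, they did so for Lgals3bp (0.0069, 0.0057 and 0.0058) and Ifit3 (0.033, 0.0070 and 0.024). Ifit3 was also at 0.0057 with the replicate block, at 0.31 without SEN 1 and BNPMT 1, and between -0.25 (without BNPMT 3) and 0.32 (without BNPMT 1) with 1 library left out. Dtx3l was at 0.082 and Ifih1 at 0.0095 after removal of the length trend, and Stat2 at -0.043 and Herc6 at -0.30 without SEN 1 and BNPMT 1. With 1 library left out, Dtx3l ranged from -0.24 to 0.11, Herc6 from -0.30 to 0.25 and Stat2 from -0.040 to 0.086. The causes were not tested. Depth limits the 16 genes under 1 CPM, 8 of which were tested only with no filter on low counts.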
